A study of Mus musculus with 8 samples.

Results

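Cyp11a1, Hsd3b1 and Lhcgr are 3 genes of the Leydig cell, the steroid-making cell between the seminiferous tubules, and they were measured here in libraries made from germ cells. They were chosen by name from the gene names of the m6A peak lists and were joined by Ensembl identifier to the count table, 3 of 53465 genes. All 3 were found in both. Cyp11a1 is ENSMUSG00000032323, Hsd3b1 is ENSMUSG00000027871 and Lhcgr is ENSMUSG00000024107.

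The study used methylated RNA immunoprecipitation sequencing, in which an antibody against N6-methyladenosine (m6A) enriches methylated RNA fragments, and these are sequenced beside the unselected fragments, called input. The 8 samples were spermatogenic cells from testes of C57BL/6 mice aged 12 weeks, either wild type (WT) or Alkbh5-/- (KO), which lack an RNA demethylase that removes m6A. The cells are called PA and RO in the labels, and pachytene spermatocytes and round spermatids in the title of the series. Each genotype and cell fraction had 1 input and 1 immunoprecipitated sample, so no value below has a replicate check, and genotype cannot be told apart from differences between single preparations. The labels do not say how the cells were separated, how many mice gave each sample, or which cells the deletion of Alkbh5 reached, and the counts of Alkbh5 itself were not analysed here.

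Leydig cells take up luteinizing hormone signals through LHCGR, a receptor that couples to cyclic AMP. The signal drives cholesterol into mitochondria, where CYP11A1, the side-chain cleavage enzyme, turns it into pregnenolone, the first steroid of the pathway. HSD3B1, a 3-beta-hydroxysteroid dehydrogenase, then turns pregnenolone into progesterone on the way to testosterone. Germ cells are not known as a main site of any of these steps, and the genes serve as Leydig markers in the adult testis.

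The peaks called on the 3 genes are placed first. Each lay inside the RefSeq span of its gene (GRCm38.p6, the assembly that mm10 also denotes). In the authors' deposited table the Hsd3b1 peak of WT PA lay in coding sequence on the − strand of chromosome 3, from 98852882 to 98853241. The Lhcgr peak of WT PA lay in coding sequence on the − strand of chromosome 17, from 88742291 to 88742469, in the authors' deposited table. The Cyp11a1 peak of WT PA ran on the + strand of chromosome 9 from 58022265 to 58025135 in the authors' deposited table, with 180 exonic bp in 2 blocks across a gap of 2691 bp, and was classed as exon and not as coding sequence. Positions were taken along the RefSeq gene, introns included, from its outermost start, and so are not positions along the transcript. The middle of the Cyp11a1 peak lay at 88.5%, against 38.6% for Hsd3b1 and 65.6% for Lhcgr. For Cyp11a1 this middle fell in the gap between the blocks. RefSeq places another gene, Gm17322, in overlap with the span of Cyp11a1, and whether it reaches the Cyp11a1 peak was not checked. The genome bases under these peaks were not used here.

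The sequences upstream of the RefSeq starts are shown because steroidogenic genes are textbook targets of the nuclear receptor NR5A1 (steroidogenic factor 1), which binds extended AGGTCA sites. Whether these sequences bear on the input levels of the 3 genes, given below, was not tested. The windows are the 250 bases before a start, 5′ to 3′ on the strand of the gene, from RefSeq on GRCm38.p6, with AGGTCA in capitals. Cyp11a1 has 2 windows, at chr9:57997774-57998023 and chr9:58014702-58014951, both on the + strand, the second of them inside the gene. Hsd3b1 has chr3:98859795-98860044 and Lhcgr chr17:88792015-88792264, both on the − strand. The start behind the Lhcgr window lies 45 bases inside the RefSeq span of the gene that was used for the peak positions above, so the 205 bases outside that span, chr17:88792060-88792264, are shown.
Cyp11a1 first start: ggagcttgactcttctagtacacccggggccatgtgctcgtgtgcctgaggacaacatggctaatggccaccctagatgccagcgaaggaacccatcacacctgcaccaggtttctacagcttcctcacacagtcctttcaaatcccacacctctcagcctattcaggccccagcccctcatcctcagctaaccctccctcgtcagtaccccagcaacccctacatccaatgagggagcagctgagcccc
Cyp11a1 second start: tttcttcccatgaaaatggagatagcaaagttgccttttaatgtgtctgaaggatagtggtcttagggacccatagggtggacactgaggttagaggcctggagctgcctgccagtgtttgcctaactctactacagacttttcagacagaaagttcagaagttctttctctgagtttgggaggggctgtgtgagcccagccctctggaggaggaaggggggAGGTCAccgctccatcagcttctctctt
Hsd3b1: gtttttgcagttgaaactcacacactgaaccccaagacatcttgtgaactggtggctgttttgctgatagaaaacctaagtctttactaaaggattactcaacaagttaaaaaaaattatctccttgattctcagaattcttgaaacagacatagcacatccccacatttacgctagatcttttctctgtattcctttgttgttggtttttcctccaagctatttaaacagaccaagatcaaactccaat
Lhcgr: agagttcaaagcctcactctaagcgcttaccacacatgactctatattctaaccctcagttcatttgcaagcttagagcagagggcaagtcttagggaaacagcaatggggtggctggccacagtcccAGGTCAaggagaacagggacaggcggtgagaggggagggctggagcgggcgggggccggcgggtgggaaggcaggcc
AGGTCA was searched on both strands. It stood 28 bases before the second start of Cyp11a1 and 122 bases before the start behind the Lhcgr window, which is 77 bases before the outer end of the Lhcgr span, counted to its first base, and was not among the letters of the first Cyp11a1 window or of the Hsd3b1 window. Of all 32851 RefSeq windows of this length, 14.0% hold it. A cyclic AMP response half-site, TGACG or its reverse complement CGTCA, was found in the first Cyp11a1 window only, while 17.8% of all windows hold it. A GATA core, GATAA or its reverse complement TTATC, was found in the Hsd3b1 window only, against 22.6% of all windows. No TATAA was found on either strand of the 4 windows, against 22.8% of all windows. The windows differed in composition, from 36.4% G and C in Hsd3b1 to 63.2% in Lhcgr. A match of letters is a description and no binding was measured.

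The input libraries held between 9921365 and 13147239 counts. The 3 genes together took 1821 counts in WT PA and 549 in WT RO, against 490 in KO PA and 190 in KO RO. In CPM, which are counts brought to equal library size, the sums were 155 for WT PA, 47.7 for WT RO, 45.3 for KO PA and 17.3 for KO RO. WT PA was thus the highest and KO RO the lowest library, with the other two close together.

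Lhcgr, the receptor at the head of the pathway, had 223 counts in WT PA and 71 in WT RO, against 57 in KO PA and 7 in KO RO. In the same order these are levels of 19.0 CPM (16.6 to 21.7), 6.17 CPM (4.82 to 7.78), 5.27 CPM (3.99 to 6.83) and 0.639 CPM (0.257 to 1.32). Its 2 middle libraries, KO PA and WT RO, did not differ beyond counting error, whereas WT PA stood above and KO RO below both of them. Lhcgr had the lowest count of the 3 genes in each library, and the upper limit of its level in KO RO was 1.32 CPM.

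Cyp11a1, the enzyme of the first steroid step, had 876 counts in WT PA and 181 in WT RO, against 226 in KO PA and 105 in KO RO. Its levels in that order were 74.7 CPM (69.8 to 79.8), 15.7 CPM (13.5 to 18.2), 20.9 CPM (18.3 to 23.8) and 9.59 CPM (7.84 to 11.6). The 4 intervals did not overlap, although those of KO PA and WT RO nearly touched. WT PA stood far above the other 3 libraries, which lay between 9.59 and 20.9 CPM.

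Hsd3b1, the next enzyme, had 722 counts in WT PA and 297 in WT RO, against 207 in KO PA and 78 in KO RO. Its levels in that order were 61.5 CPM (57.1 to 66.2), 25.8 CPM (22.9 to 28.9), 19.1 CPM (16.6 to 21.9) and 7.12 CPM (5.63 to 8.89), and these intervals did not overlap. KO PA and WT RO stood in the opposite order to Cyp11a1. RefSeq lists 6 Hsd3b genes in 361 kb of chromosome 3, near copies of each other, and how the counting divided reads between them is not known, so the level of Hsd3b1 is uncertain in this respect. Levels were not compared between genes, because no transcript lengths were used.

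**Figure D1:**
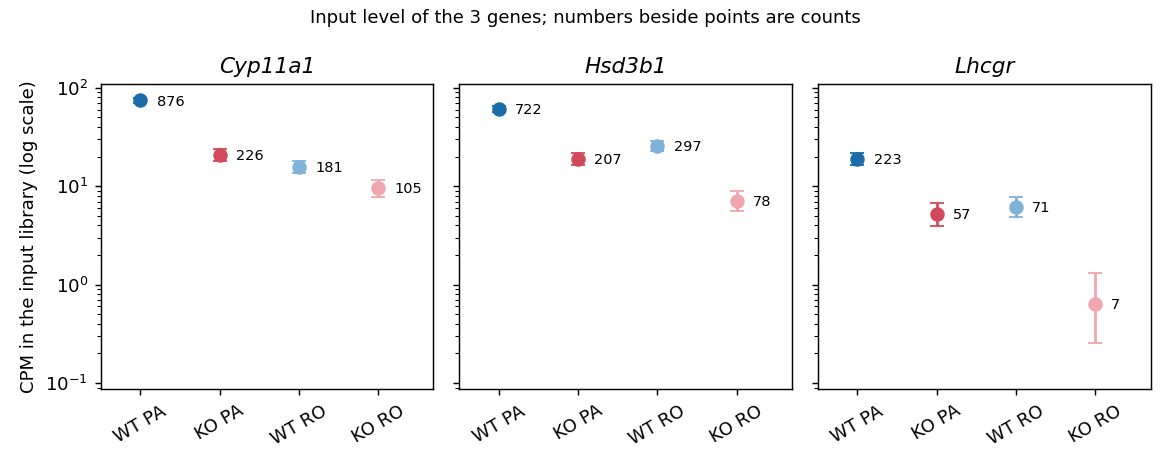
Input level of each gene in CPM (log axis) in the 4 input libraries, 1 library per point, with exact Poisson 95% intervals that cover counting error only and the raw count beside each point. WT PA was highest and KO RO lowest for all 3 genes, while the order of KO PA and WT RO differed between Cyp11a1 and Hsd3b1.

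Loss of Alkbh5 was the main contrast of the study. In PA the 3 genes were lower in KO by nearly the same factor. The log2 ratio KO over WT was −1.83 for Cyp11a1 (95% interval −2.06 to −1.63), −1.68 for Hsd3b1 (−1.92 to −1.46) and −1.82 for Lhcgr (−2.30 to −1.43). Folds are plain ratios of CPM, without the prior count of 2 that enters the log2 ratios. By these the level in KO was 3.57-fold lower for Cyp11a1, 3.22-fold lower for Hsd3b1 and 3.61-fold lower for Lhcgr. All 3 passed 2-fold. Of the 24331 genes that reached a CPM of 1 in a library of the pair, 19.9% were at least 2-fold lower in KO, and the median log2 ratio was 0.04. Among the 12575 genes that reached a CPM of 10, 13.0% were at least 2-fold lower, and 2.79%, 3.73% and 2.85% had a ratio as low as those of Cyp11a1, Hsd3b1 and Lhcgr.

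In RO the genes were also lower in KO, but by unequal factors. The log2 ratio was −0.70 for Cyp11a1 (−1.07 to −0.36), which is under 2-fold, −1.83 for Hsd3b1 (−2.24 to −1.49) and −2.96 for Lhcgr (−4.64 to −2.15). As a plain ratio of CPM, Lhcgr was 9.65-fold lower in KO, with an interval of 4.45 to 24.9 that reflects the 7 counts of KO RO. Its log2 ratio of −2.96 is smaller in size because the prior count of 2 weighs most at such low counts. So 2 of 3 genes were at least 2-fold lower, while 19.0% of 24763 genes were. Of the 12567 genes that reached a CPM of 10, 20.8% had a ratio as low as that of Cyp11a1, 2.59% as low as Hsd3b1 and 0.366% as low as Lhcgr. Lhcgr itself reached only 6.17 CPM in WT RO and 0.639 in KO RO. It is therefore not among these genes, and its share is read against genes of higher level, whose ratios spread less.

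These intervals are too narrow for a comparison of conditions, since single libraries differ by more than counting error. Genes with a summed count within 1.5-fold of that of the member give a scale for this. In PA the robust SD of their log2 ratios was 0.70 for the 2990 genes like Cyp11a1, 0.72 for the 3170 like Hsd3b1 and 1.06 for the 3656 like Lhcgr. In RO it was 0.96 for those like Cyp11a1, 0.87 for those like Hsd3b1 and 1.48 for those like Lhcgr. The ratio of Cyp11a1 in RO was smaller in size than this robust SD, and the other 5 ratios were larger than it. To exceed the robust SD is a low bar, and the share of these genes beyond each ratio was not counted. The robust SD also holds counting error and any differences of genotype or cell makeup, which were not separated.

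Between the cell fractions the genes were lower in RO than in PA in both genotypes. These comparisons use the same 4 libraries as those of genotype and are not independent of them. In WT the log2 ratio RO over PA was −2.24 for Cyp11a1 (−2.49 to −2.02), −1.25 for Hsd3b1 (−1.45 to −1.06) and −1.60 for Lhcgr (−2.03 to −1.23). In KO it was −1.11 for Cyp11a1 (−1.47 to −0.78), −1.40 for Hsd3b1 (−1.82 to −1.04) and −2.74 for Lhcgr (−4.42 to −1.91). All 3 were at least 2-fold lower in RO in each genotype, against 18.7% of 23979 genes in WT and 15.2% of 24806 genes in KO. Among genes that reached a CPM of 10, which Lhcgr did not in KO, these shares were 9.64% and 5.64%. In these bulk samples fewer cells of a type and less RNA per cell cannot be told apart.

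The proportions between the 3 genes within a library need no scaling. Lhcgr counts per Cyp11a1 count were 0.255 in WT PA (0.219 to 0.295) and 0.252 in KO PA (0.185 to 0.339), so that the PA libraries of both genotypes held the same proportion within counting error. WT RO had 0.392 (0.294 to 0.519) and KO RO 0.0667 (0.0262 to 0.142), apart from each other. Cyp11a1 counts per Hsd3b1 count were 0.609 in WT RO (0.504 to 0.736), below the 1.21 of WT PA (1.10 to 1.34), the 1.09 of KO PA (0.900 to 1.32) and the 1.35 of KO RO (0.995 to 1.83). Lhcgr counts per Hsd3b1 count were 0.0897 in KO RO (0.0349 to 0.194), against 0.309 for WT PA (0.265 to 0.359), 0.275 for KO PA (0.202 to 0.371) and 0.239 for WT RO (0.182 to 0.311). The PA libraries thus held the same 3 proportions within counting error. WT RO stood apart from the other 3 libraries in Cyp11a1 per Hsd3b1, and KO RO in Lhcgr per Cyp11a1, while for Lhcgr per Hsd3b1 the interval of KO RO reached that of WT RO. Spread between libraries beyond counting error, which was not measured on its own, enters these proportions too.

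**Figure D2:**
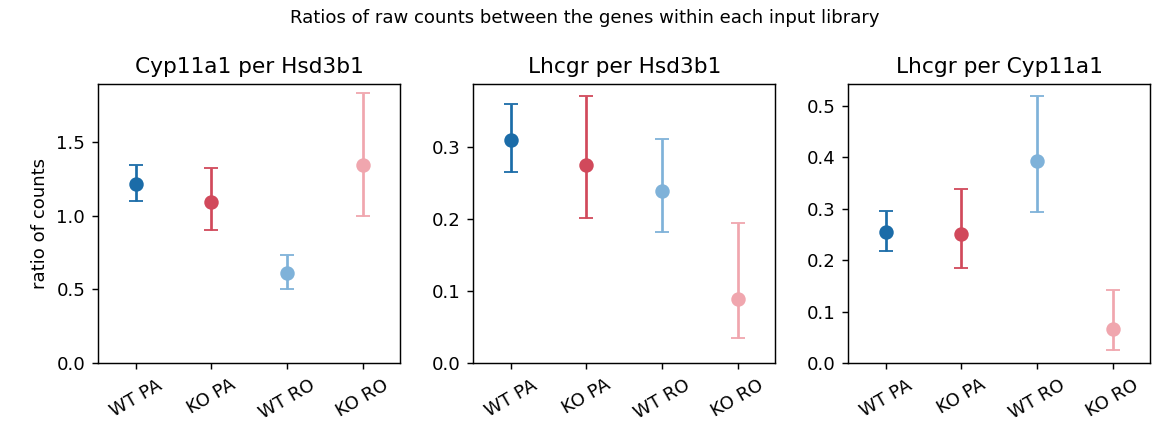
Ratio of raw counts between pairs of the 3 genes (linear axis from 0) within each of the 4 input libraries, with exact binomial 95% intervals that cover counting error only. WT PA and KO PA overlap in each panel, WT RO is lowest for Cyp11a1 per Hsd3b1, and KO RO is lowest for both ratios with Lhcgr.

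Other genes of the pathway carried a symbol, and so could be read, only if some list gave them a peak. Of 24 steroidogenesis and Leydig genes 9 did, which are the 3 members and 6 others. Of these 6, 2 were at least 2-fold lower and 0 at least 2-fold higher in KO in PA, against 19.9% lower and 23.8% higher among all genes. Among genes that reached a CPM of 10, 13.0% were lower and 13.3% higher. In RO 0 of the 6 were 2-fold apart in either direction, against 19.0% lower and 23.0% higher among all genes. At a CPM of 10 these shares were 12.9% and 11.8%. The median log2 ratio of these 6 genes was −0.47 in PA and 0.05 in RO, while that of all genes was 0.04 in each. Between the fractions, 3 of the 6 were at least 2-fold lower in RO in WT, as the members were. These were Nr5a1 (−1.74), Prlr (−1.35) and Fdxr (−1.14), against 18.7% of all genes. In KO 1 of the 6 was, Prlr (−1.09), against 15.2%.

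The genes that were at least 2-fold lower in KO in PA were Fdxr and Nr5a1, and neither was so in RO. Fdxr, the ferredoxin reductase that feeds electrons to CYP11A1, had 1484 counts in WT PA and 662 in WT RO, against 446 in KO PA and 537 in KO RO, with log2 ratios KO over WT of −1.61 in PA and −0.23 in RO. Nr5a1, the steroidogenic factor named above, had 609, 177, 199 and 208 counts in the same order, with log2 ratios of −1.49 in PA and 0.30 in RO. For both, WT PA stood above the other 3 libraries, as it did for the members, but KO RO was not the lowest. Both genes are also made outside Leydig cells, Fdxr widely and Nr5a1 in Sertoli cells, whereas the members serve as Leydig markers in the adult testis.

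The remaining 4 were under 2-fold in both genotype comparisons. Prlr, the prolactin receptor, had log2 ratios of −0.47 in PA and −0.20 in RO, and Gata4, a transcription factor of Leydig and Sertoli cells, had −0.48 and −0.54. Nr4a1, an orphan nuclear receptor induced by cyclic AMP, had −0.11 and 0.87, and Insr, the insulin receptor, had 0.04 and 0.46.

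The signalling genes below the LH receptor were measured for 10 of 15 listed. In PA 0 of 10 were 2-fold apart between genotypes, against 19.9% of all genes lower and 23.8% higher. Among genes that reached a CPM of 10, 13.0% were lower and 13.3% higher. In RO 1 of the 10 was, against 19.0% lower and 23.0% higher among all genes, or 12.9% and 11.8% at a CPM of 10. It was Pde4a (log2 ratio −1.09, or −0.91 and so under 2-fold with total counts), a phosphodiesterase named after its values were seen. The highest counts belonged to Crem, a cyclic AMP response factor of spermatids, with log2 ratios of 0.26 in PA and −0.06 in RO, and to Arrb1, a beta-arrestin, with −0.04 and −0.10. Adcy9, an adenylyl cyclase, had −0.12 and −0.59, Creb1, a cyclic AMP response factor, 0.30 and 0.32, and Gnas, which encodes the stimulatory G protein alpha subunit, 0.05 and 0.52. The median of the 10 genes was 0.18 in PA and 0.05 in RO.

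Markers of other testis cells were read in the same libraries. The Leydig list itself had 3 of its 8 markers named, all of them members, and the other 5 were not analysed here. Of the Sertoli list 4 of 13 were named (Sox9, Wt1, Clu and Vim), with summed levels of 345 CPM in WT PA and 247 in WT RO, against 440 in KO PA and 299 in KO RO. None of these 4 genes was 2-fold apart between genotypes, with a median log2 ratio of 0.29 in PA and 0.34 in RO. Of the peritubular list 1 of 5 was named, Myh11, a smooth muscle myosin, with log2 ratios of −0.07 in PA and 0.66 in RO.

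Endothelial and macrophage markers were higher in KO where they differed. Of the endothelial list 5 of 7 were named, with summed levels of 179 CPM in WT PA and 93.8 in WT RO, against 243 in KO PA and 238 in KO RO. In PA 0 of these 5 were 2-fold apart. In RO 4 of 5 were at least 2-fold higher in KO, Cd93 (3.90), Kdr (2.31), Pecam1 (1.38) and Cdh5 (1.30). This compares with 23.0% of all genes and 11.8% of those that reached a CPM of 10. Vwf had a log2 ratio of 0.79. Between the fractions in WT, 3 of 5 were at least 2-fold lower in RO, as the members were. These were Cd93 (−3.96), Kdr (−2.01) and Pecam1 (−1.04), against 18.7% of all genes and 9.64% of those that reached a CPM of 10. In KO 0 of 5 were at least 2-fold lower in RO. With total counts Pecam1 fell short of 2-fold between the fractions in WT (−0.95) and Cd93 passed it between genotypes in PA (1.04). Of the macrophage list 3 of 7 were named, with sums of 47.5 CPM, 61.5, 76.0 and 85.3 in the same order of libraries. Csf1r, the receptor for a macrophage growth factor, had log2 ratios of 2.43 in PA and 1.63 in RO, Cd163, a scavenger receptor, 2.08 and 1.31, and Mrc1, the mannose receptor, 0.41 and 0.18. No named marker of these 4 somatic lists was at least 2-fold lower in KO in either fraction. Of the Leydig genes 3 of 3 were in PA and 2 of 3 in RO, against 19.9% and 19.0% of all genes. Among genes that reached a CPM of 10, these shares were 13.0% and 12.9%. The Leydig genes are the members, chosen with earlier results of these data known. They could be read only through their peaks, and all 3 had one in WT PA, the library of their highest counts. The other Leydig markers were not read, so this contrast does not extend to the Leydig list.

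Germ cell markers differed between the libraries as well. Of the spermatocyte list 2 of 8 were named, Sycp1 and Sycp2, both parts of the synaptonemal complex, with summed levels of 2136 CPM in WT PA and 1883 in WT RO, against 1165 in KO PA and 1364 in KO RO. Of the spermatid list 5 of 8 were named, with 202 CPM in WT PA and 390 in WT RO, against 502 in KO PA and 933 in KO RO. By these sums WT PA and KO RO, the highest and lowest libraries of the members, were the lowest and highest for the spermatid list, and WT PA was the highest for the spermatocyte list. The single markers of a list differed. Sycp2 had log2 ratios KO over WT of −1.11 in PA (−0.82 with total counts) and −0.71 in RO, whereas Sycp1, with −0.09 and 0.25, was highest in KO RO. Of the spermatid markers 4 of 5 were at least 2-fold higher in KO in each fraction, against 23.8% of all genes in PA and 23.0% in RO. At a CPM of 10 these shares were 13.3% and 11.8%. Akap4, a sperm tail scaffold, had 2.22 in PA and 1.57 in RO, Tnp2, a transition protein, 1.99 and 2.73, Odf1, a sperm tail fibre protein, 1.67 and 1.62, and Prm2, a protamine, 1.23 and 1.68. Acrv1, an acrosome protein, had −0.09 and −0.81 and was highest in WT RO. Both spermatocyte markers were present in the RO libraries and all 5 spermatid markers in the PA libraries. The part of the cell makeup in the values of the 3 genes was not tested.

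**Figure D3:**
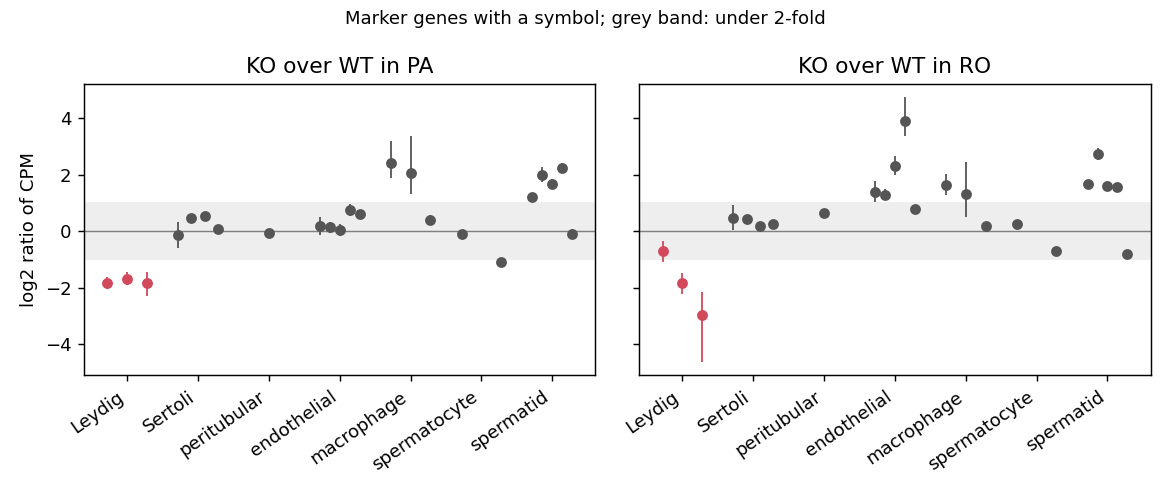
The log2 ratio of CPM, KO over WT, for every marker gene with a symbol in PA (left) and RO (right), with exact binomial 95% intervals that cover counting error only, and a grey band where the ratio is under 2-fold. The 3 Leydig genes (red) are the lowest group in PA, and in RO Hsd3b1 and Lhcgr lie below all other markers.

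The m6A peaks of the 3 genes were then set against the counts. In WT PA, the library with the highest counts, 3 of 3 genes had a peak, and 21.4% of the 21094 genes that reached a CPM of 1 there had one. In KO PA 2 of 3 did (26.9% of 21740 genes), in WT RO 2 of 3 (26.0% of 21233 genes), and in KO RO, with the lowest counts, 0 of 3 (24.1% of 22371 genes). The 7 pairs of gene and library with a peak had counts from 57 to 876 (median 223), and the 5 pairs without one from 7 to 226 (median 78). The ends of the range therefore went together, while the middle did not.

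Lhcgr had a peak in KO PA at 57 counts and none in WT RO at 71. Cyp11a1 had a peak in WT RO at 181 counts and none in KO PA at 226. That WT RO peak had a false discovery rate of 0.818 in the authors' deposited table. At a limit of 0.05 Cyp11a1 kept a peak only in WT PA, the library with its highest count. Over all listed peaks, only Hsd3b1 had its peaks in the 3 libraries with its highest counts, at 722, 297 and 207. The genes were chosen from the peak lists, so that each had to have at least 1 peak.

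In WT PA the fold enrichment in the authors' deposited table was 26.6 for Hsd3b1, 21.1 for Lhcgr and 5.52 for Cyp11a1, against a median of 11.7 over the 7502 peaks of that list. The false discovery rate was 5.01e-96 for Hsd3b1, 3.09e-05 for Lhcgr and 1.26e-13 for Cyp11a1 in the authors' deposited table. Hsd3b1 was above 78.5% of the peaks of the list by fold and Cyp11a1 above 17.4%. The Cyp11a1 peak had the lowest enrichment of the 3, and its gene the highest count.

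In KO PA the fold in the authors' deposited table was 15.0 for Lhcgr (false discovery rate 0.000347) and 5.83 for Hsd3b1 (0.000178), against a list median of 13.0. In WT RO the fold in the authors' deposited table was 21.5 for Hsd3b1 (5.01e-26) and 8.07 for Cyp11a1, against a median of 15.1. The Cyp11a1 peak of WT RO had a p-value of 0.019 and a false discovery rate of 0.818 in the authors' deposited table, so that at a limit of 0.05 only 1 gene kept a peak in WT RO. Folds were not compared between lists, because each list rests on its own pair of libraries.

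Where a gene had peaks in several lists they lay at one place. The Cyp11a1 peak of WT RO had 150 exonic bp, and all of them lay within the 180 bp of the WT PA peak, with the same gap and the same end. For Lhcgr the 179 bp of the WT PA peak lay wholly within the 268 bp of the KO PA peak. For Hsd3b1 the 180 bp of the KO PA peak lay wholly within both the 360 bp of WT PA and the 420 bp of WT RO, and the latter 2 shared 330 bp. All 5 pairs of peaks of 1 gene overlapped, and 4 of 5 did so by at least 50% of both peaks, the exception being KO PA with WT RO for Hsd3b1 (42.9% of the longer peak).

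**Figure D4:**
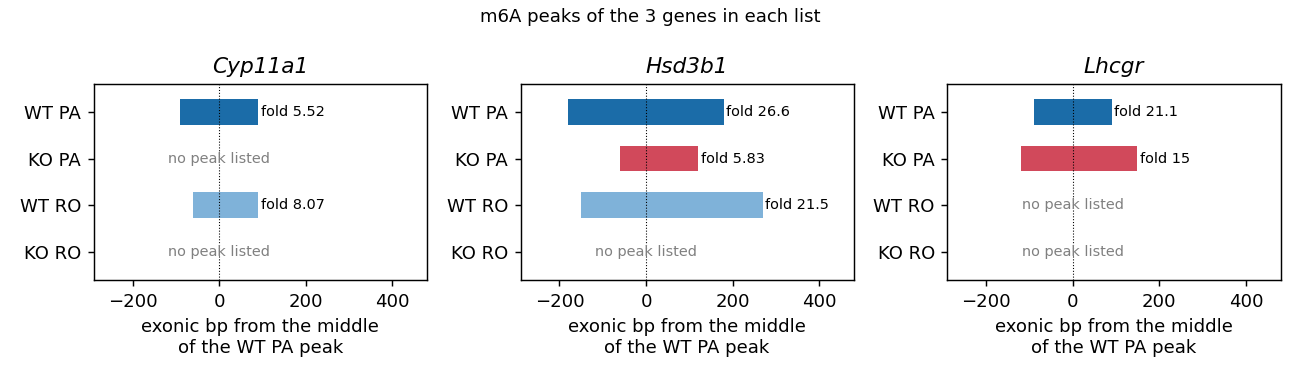
Position of each listed peak of the 3 genes in exonic bp from the middle of the WT PA peak, in the direction of transcription, 1 row per list, with the authors' fold enrichment beside it. Peaks of 1 gene overlap in each list that has one, and KO RO has none.

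The share of genes with a peak grows with the level of the gene, so each member was read against genes within 1.5-fold of its CPM in the same library. In WT PA 40.0% of the 2400 genes like Cyp11a1 had a peak (38.1% to 42.0%), 38.0% of those like Hsd3b1 and 26.1% of those like Lhcgr. In KO PA the shares were 34.3% for genes like Cyp11a1, which had no peak, 32.3% for those like Hsd3b1 and 11.6% (10.7% to 12.7%) for those like Lhcgr, which both had one. In WT RO they were 26.5% for Cyp11a1, 35.1% for Hsd3b1 and 15.0% for Lhcgr, the last without a peak. In KO RO they were 18.7% for Cyp11a1, 14.6% for Hsd3b1 and 1.70% (1.30% to 2.24%) for Lhcgr, all without a peak. At none of these levels did most genes have a peak. The shares mix genes without the mark and genes whose mark was not called. They therefore cannot tell whether a missing peak in 1 list means that the mark was absent. The members also had to have a peak in some list, which was not asked of the genes they are read against. No counts of immunoprecipitated RNA were used, and the depth behind each peak is unknown.

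The genes with the closest profile to each member over the 4 input libraries were sought among 7052 other genes that had a symbol and reached a CPM of 10, by the Euclidean distance of log2 CPM centred on the mean of the gene. For Cyp11a1 they were Gm17833 (distance 0.32), AC114585.1 (0.46) and Gadd45g (0.50), the last a growth arrest and DNA damage response gene. For Hsd3b1 they were Gm2673 (0.19), Ppcdc (0.27), an enzyme of coenzyme A synthesis, and Isca2 (0.33), an iron-sulfur cluster assembly factor. For Lhcgr they were Slc45a3 (0.47), a sugar transporter, AI182371 (0.98) and Serpina3g (1.05), a serine protease inhibitor. With only 4 libraries such a distance is a description.

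The members were not each other's closest genes. Hsd3b1 was 4th closest to Lhcgr (distance 1.16) and 27th to Cyp11a1 (0.88), Cyp11a1 was 36th to Hsd3b1 and 24th to Lhcgr, and Lhcgr was 145th to Hsd3b1 and 857th to Cyp11a1. Slc45a3 had 368 counts in WT PA and 149 in WT RO, against 85 in KO PA and 10 in KO RO, with peaks in WT PA and WT RO. Ppcdc had 657, 267, 162 and 80 counts in the same order, with a peak in WT PA, KO PA and WT RO and none in KO RO, which is the peak pattern of Hsd3b1 as well. Gadd45g had 838, 172, 331 and 120 counts and at least 1 peak in all 4 lists, so a profile near that of Cyp11a1 went with another pattern of peaks.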

How the data were processed

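The 4 input libraries and the 4 peak lists of PA and RO cells were used. The submitters' processing notes name cutadapt 2.5, HISAT2 2.1.0, HOMER 4.10.4 and the build mm10, with no role given. The counting tool, the annotation, and the treatment of strand, duplicates and shared reads are not given in the sources used here. The authors deposited whole-number counts per Ensembl gene, not normalized. Per the file headers, the peaks come with a p-value, its log10, a log10 false discovery rate and a fold enrichment, a ratio of immunoprecipitated over input signal. The peak caller and the scaling behind these values are not given in the sources used here, and the fold was used only within a list.

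Symbols came from the peak lists and named 8733 of 53465 identifiers. A gene without a peak in any list has no name here and was not analysed, which holds for Alkbh5 itself, so its counts could not serve to check the genotype labels. Counts were scaled by TMM (edgeR 4.0.16 in R 4.3.3) to CPM, counts at a common library size, and to log2 CPM with a prior count of 2. With 1 library per group no model was fitted and no test was made. A gene was counted in a comparison if it reached a CPM of 1 in a library of the pair, and a log2 ratio of 1 or more, or of −1 or less, was called 2-fold. Intervals are exact Poisson for levels, exact binomial for ratios and Wilson for shares, at 95%, and cover counting error only. Folds and the intervals of ratios were taken from the counts without the prior count. The robust SD is the scaled median absolute deviation. Peaks were compared by exon blocks on 1 strand with an overlap of at least 1 bp. Python 3.11.15, pandas 2.3.3 and scipy 1.17.1 were used. On simulated counts, 200 of 200 genes changed 4-fold were past 2-fold in each genotype comparison (11319 genes in PA, 11332 in RO). The simulation held counting error only, used genes with a mean CPM of at least 10 and reused the known library sizes. It checks the code and cannot tell how often libraries differ without a change of genotype.

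The 3 genes and the lists were chosen with earlier results of these data known, and 3 genes of the lists are not reported here. Named genes were all 3 members, the genes of each list that were 2-fold apart in 1 direction in both genotype comparisons or had the highest counts (up to 5), and the 3 genes with the closest profile to each member. Alternatives were DESeq2 1.42.0 size factors, total counts, a prior count of 0.5, other filters on CPM, limits on the peaks and a stricter overlap.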

Additional observations from a re-analysis of the deposited data

Results flagged for a closer look

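Nr5a1 was set apart because its genotype ratios lay on opposite sides of 0 in the PA and RO libraries beyond counting error. The log2 ratio KO over WT was −1.49 in PA (95% interval −1.73 to −1.26) and 0.30 in RO (0.0087 to 0.60). The difference between the fractions was not tested, since each group has 1 library, and the RO interval nearly reaches 0.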

How the results depend on the processing

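All 12 ratios of the 3 genes kept their sign under DESeq2 size factors, total counts and a prior count of 0.5, and 10 of 12 stayed within their counting interval under total counts. That scaling moved the median of all genes by 0.28 in the PA genotype comparison and by 0.18 in the RO one. The PA ratios KO over WT became −1.54 for Cyp11a1 and −1.39 for Hsd3b1. With a CPM of at least 10, fewer genes were counted, and the number at least 2-fold lower became 1640 for KO over WT in PA, 1616 in RO, 1181 for RO over PA in WT and 703 in KO. Members with a peak in WT RO numbered 1 at a false discovery rate under 0.05. Of the 6 other steroidogenesis and Leydig genes, 1 (Nr4a1) was 2-fold higher in KO in RO under total counts. The cause was not tested. Over all 222 ratios and counts of named genes, 68 moved beyond counting error under total counts and 0 under DESeq2 size factors or the other prior count, and no ratio past 2-fold changed sign. No paired analysis was possible because each group holds 1 library and no test was made, and no replicate could be left out. Depth limits Lhcgr most, with 7 counts in KO RO.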

Other observations

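Genes of cholesterol synthesis, which makes the substrate of CYP11A1, were by their median not lower in KO, unlike the 3 genes, but by their median lower in RO than in PA, as those were. Of 18 genes 6 had a symbol, and their median log2 ratio KO over WT was 0.50 in PA and 0.75 in RO. Insig1, a sterol sensor, had 90 counts in WT PA and 55 in WT RO, against 317 in KO PA and 178 in KO RO, with log2 ratios of 1.91 and 1.73. Hmgcs1, the synthase at the head of the pathway, had 0.59 and 0.90. Of the others with high counts, Sqle had −0.11 and 0.60, Fdft1 0.41 and 0.46, Lss 0.09 and 0.0034 and Sc5d 0.90 and 1.02. Between fractions their median log2 ratio RO over PA was −0.64 in WT and −0.54 in KO. In WT 2 of 6 were at least 2-fold lower in RO, Hmgcs1 (−1.52) and Sc5d (−1.09, or −0.998 with total counts), against 18.7% of all genes. In KO 1 was, Hmgcs1 (−1.22), against 15.2%. At a CPM of 10 these shares were 9.64% in WT and 5.64% in KO. The cholesterol synthesis genes are expressed in many cell types, and no replicate was available.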
